A study of Mus musculus with 6 samples.

Results

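Integrins and laminins were followed as a set of 37 genes defined by name, with earlier results of these data known. The set held every mouse symbol for an integrin alpha chain (18 genes), an integrin beta chain (8 genes) or a laminin alpha, beta or gamma chain (11 genes), out of 57180 gene identifiers. All 37 had reads, and 7 of them, the leukocyte integrins Itgad, Itgae, Itgal, Itgam, Itgax, Itgb2 and Itgb7, were kept apart from the other 30. RNA came from mouse fibroblasts of the lung, the heart (cardiac) and the tail tip, with 1 library for each origin and virus, 6 in all. Cells of each origin received a control adenovirus that carries a green fluorescent protein (Ad-GFP) or one that carries Cre recombinase (Ad-Cre, which the labels equate with a GATA4 knockout), and were harvested 48 h later. The genotype label is wild type for all 6 libraries, so no floxed Gata4 allele is named. All groups carried an adenovirus, with no uninfected group, and nothing in the labels states strain, sex, age or whether animals were pooled.

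Integrins are transmembrane receptors, each made of 1 alpha and 1 beta chain, that hold a cell to the matrix around it and pass signals in both directions. Laminins are heterotrimers of 1 alpha, 1 beta and 1 gamma chain, and they form the sheet of the basement membrane to which several integrins bind. Fibroblasts are known for integrins that bind fibronectin and collagen, epithelial cells for the alpha 6 beta 4 integrin and laminin-332 (which holds the chains of Lama3 and Lamb3), and white blood cells for the beta 2 integrins.

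Total counts lay between 26170316 and 33779069 per library, and 1 read was worth 0.0302 to 0.0390 CPM, the read count scaled to a common library total. Intervals on counts cover counting error only, since reads without molecular identifiers are not independent molecules. Gata4 itself was not lower in the libraries labelled Ad-Cre. It was at 14.7 CPM with Ad-GFP and 19.2 CPM with Ad-Cre in lung, at 146.5 and 149 CPM in cardiac, and at 1 and 2 reads in tail tip libraries. "Ad-Cre" therefore names the virus on the label below, not a measured loss of Gata4. All 7 fibroblast markers (Col1a1, Col1a2, Col3a1, Dcn, Lum, Pdgfra, Thy1) had reads in each library, with sums from 4843 to 16410 CPM. Endothelial markers summed to 7.37 to 29.5 CPM and glial markers to 0.857 to 5.52 CPM. The 14 macrophage and leukocyte markers summed to 19.7 and 15.3 CPM in lung, to 1064 and 639.6 CPM in cardiac and to 5538 and 4664 CPM in tail tip libraries. In bulk RNA, fewer cells of a type and less RNA per cell cannot be told apart.

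Levels of most integrin and laminin chains differed by origin, and cardiac fibroblasts stood highest for the largest number of them. Of the 36 chains with enough reads to test, 16 had both cardiac libraries above the other 4 (13.2% of all genes tested), and Itga2b alone had both below (14.1% of all genes). Lung libraries were the lowest for 17 chains (27.3% of all genes) and the highest for Itga2 alone (26.1% of all genes). Tail tip libraries were the highest for 9 (28.3% of all genes) and the lowest for another 9 (22.3% of all genes).

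In the test of origins (edgeR's quasi-likelihood test with virus as a term, Benjamini-Hochberg adjustment over 18143 genes, threshold 0.05), 23 of 36 chains differed between cardiac and lung, 21 of them higher in cardiac, against 38.4% of all genes called. Between cardiac and tail tip 22 differed, 14 higher in cardiac and 8 lower, against 33.5% of all genes. Between lung and tail tip 25 differed, 8 higher in lung and 17 lower, against 50.6% of all genes. Libraries of the origins compared did not overlap for 28, 28 and 30 of the 36 chains, where 70.3%, 70.6% and 84.7% of all genes did not. For cardiac and lung, 25 of the 28 had both cardiac libraries above, against 35.1% of all genes. Median log2 fold changes of the 36 were 1.40 (cardiac minus lung), 0.52 (cardiac minus tail tip) and -0.74 (lung minus tail tip), where those of all genes tested were -0.01, -0.06 and -0.06. Without the 7 leukocyte integrins, 19, 18 and 20 of 29 chains differed. A call in at least 1 comparison was made for 30 chains (62.5% of all genes) and in all 3 for 12 (13% of all genes). No difference was called for Itgae, Itgb4, Itgb7, Lama3, Lamb3 or Lamc3, and Lama1 was too low to test. The 2 libraries of an origin, 1 per virus, stand in for replicates here. The spread behind the p-values is what the additive terms of origin and virus leave among these libraries, on 2 residual degrees of freedom.

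**Figure D1:**
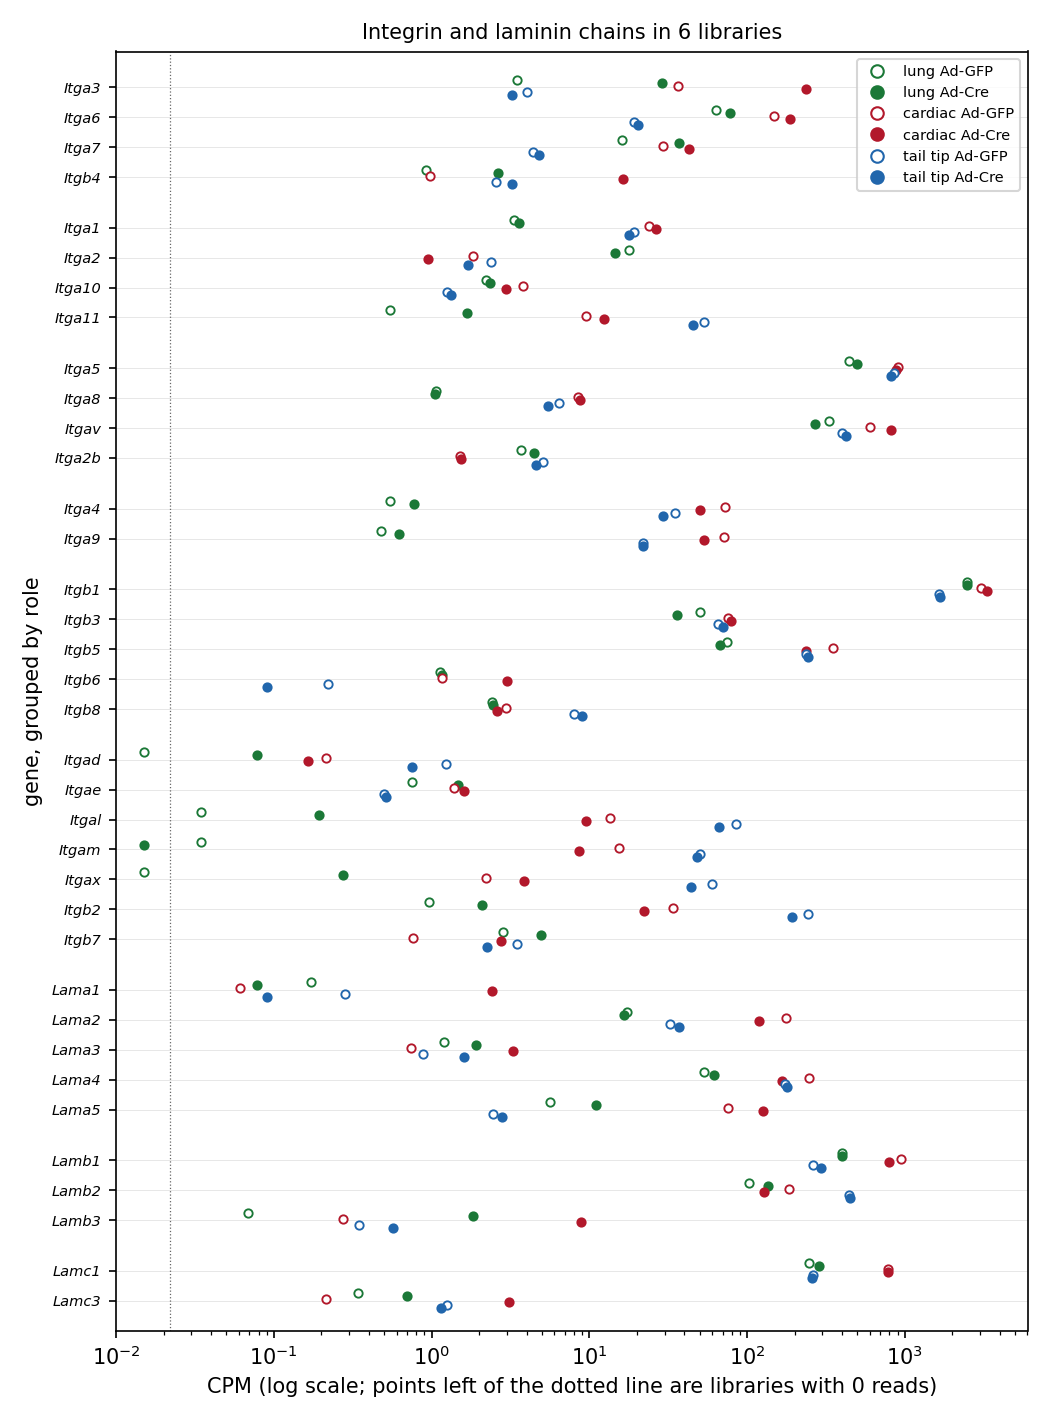
Level of 36 of the 37 chains in CPM (x axis, log scale) in the 6 libraries, with genes grouped by role on the y axis, colour for origin, open points for Ad-GFP and filled points for Ad-Cre. Itga4 and Itga9 lie below 1 CPM in both lung libraries and above 20 CPM in the other 4, and the 5 chains Itgad, Itgal, Itgam, Itgax and Itgb2 are highest in both tail tip libraries.

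Of the laminin-binding integrin chains, Itga6 and Itga7 were lowest in tail tip fibroblasts. Itga6, the alpha chain of the alpha 6 beta 1 and alpha 6 beta 4 laminin receptors, was at 63.2 and 77.8 CPM in lung (the Ad-GFP library first, here and in all pairs of values), at 147 and 188 CPM in cardiac and at 19.3 and 20.3 CPM in tail tip libraries. No origins overlapped, and it rose in cardiac over lung by 1.25 ± 0.15 (log2 fold change ± SE, edgeR, adjusted p = 0.000944), in cardiac over tail tip by 3.07 ± 0.16 (adjusted p = 3.42e-05) and in lung over tail tip by 1.82 ± 0.16 (adjusted p = 9.87e-05). Itga7, the alpha 7 chain known from muscle, was at 16.1 and 37.2 CPM in lung, 29.3 and 42.8 CPM in cardiac and 4.37 and 4.77 CPM in tail tip libraries. Lung and cardiac overlapped for Itga7, and both were above tail tip (edgeR log2 fold changes 2.44 ± 0.28 and 2.94 ± 0.28, adjusted p = 0.000389 and 0.000327).

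Itga3, which pairs with beta 1 to bind laminin-332 and laminin-511, stood far apart in the 2 libraries of lung and of cardiac fibroblasts. It was at 3.46 and 28.9 CPM in lung, 36.8 and 234.9 CPM in cardiac and 4.05 and 3.23 CPM in tail tip libraries. Both cardiac libraries were above the other 4, while the lung Ad-GFP library lay among the tail tip libraries. The log2 fold change was 3.12 ± 0.68 for cardiac minus lung (edgeR, adjusted p = 0.0112) and 4.49 ± 0.77 for cardiac minus tail tip (adjusted p = 0.00461). Both calls were lost without the lung Ad-GFP, the lung Ad-Cre or the cardiac Ad-GFP library, with edgeR adjusted p of 0.391 to 0.572 for cardiac minus lung and of 0.322 to 0.359 for cardiac minus tail tip, and the first also in a model of origin alone (adjusted p = 0.054). Itgb4, the beta chain of hemidesmosomes, was at 0.926 and 2.65 CPM in lung, 0.983 and 16.4 CPM in cardiac and 2.58 and 3.23 CPM in tail tip libraries, with the origins overlapping and no call.

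Promoters of some of the chains are printed from RefSeq (build GRCm38.p6), which listed 26 promoters for 23 of the 37 genes, each from 250 bases before to 50 after the start, 300 bases in all. Capitals mark matches, on either strand, to any of 5 letter patterns: GGGCGG (GC box), GAGGAA (the core bound by PU.1, a myeloid factor), TGANTCA (AP-1), GATAAG (bound by GATA factors) and TATAAA (a core promoter element), and no 2 matches overlap in the windows printed. Itga3 and Lamb3 are shown because their Ad-Cre to Ad-GFP ratios were high in both lung and cardiac fibroblasts. Itgb4, past 2-fold in both as well, had no promoter listed. For each the first of the 2 starts that RefSeq lists is given, Itga3 on the minus strand at chr11:95076665-95076964 and Lamb3 on the plus strand at chr1:193301744-193302043.
Itga3: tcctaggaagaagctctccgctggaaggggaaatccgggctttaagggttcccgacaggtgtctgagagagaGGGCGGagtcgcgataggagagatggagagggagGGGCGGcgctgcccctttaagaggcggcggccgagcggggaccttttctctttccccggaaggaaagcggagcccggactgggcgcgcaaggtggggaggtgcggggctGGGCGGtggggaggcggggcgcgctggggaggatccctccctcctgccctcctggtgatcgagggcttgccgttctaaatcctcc
Lamb3: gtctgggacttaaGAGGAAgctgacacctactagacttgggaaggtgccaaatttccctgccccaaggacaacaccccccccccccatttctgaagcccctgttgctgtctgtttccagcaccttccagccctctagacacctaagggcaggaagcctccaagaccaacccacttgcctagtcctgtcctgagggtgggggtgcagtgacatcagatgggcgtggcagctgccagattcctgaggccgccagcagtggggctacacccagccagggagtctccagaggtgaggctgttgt
3 matches to GGGCGG are in capitals in the Itga3 promoter and 1 to GAGGAA in that of Lamb3. GGGCGG occurred in 12 of the 26 promoters (35.7% of all 32851), GAGGAA in 14 (28.3%), TGANTCA in 3 (7.81%), GATAAG in 0 (7.44%) and TATAAA in 0 (13.6%). A match describes letters only.

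The mix of collagen-binding chains differed by origin. Itga11, an alpha chain of fibroblasts that binds fibrillar collagen, was at 0.549 and 1.68 CPM in lung, 9.58 and 12.3 CPM in cardiac and 53.2 and 45.2 CPM in tail tip libraries. The 3 origins did not overlap, and edgeR gave -5.55 ± 0.42 for lung minus tail tip (log2, adjusted p = 5.46e-05), 3.35 ± 0.40 for cardiac minus lung (adjusted p = 0.000872) and -2.20 ± 0.34 for cardiac minus tail tip (adjusted p = 0.00272). Itga1, which prefers basement membrane collagen IV, was at 3.33 and 3.58 CPM in lung, 23.8 and 26.4 CPM in cardiac and 19.2 and 17.9 CPM in tail tip libraries. Lung stood below both other origins (edgeR log2 fold changes 2.86 ± 0.21 for cardiac minus lung and -2.42 ± 0.21 for lung minus tail tip, adjusted p = 0.000102 and 9.73e-05), and cardiac minus tail tip was not called (adjusted p = 0.117).

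Itga2, the alpha chain of the platelet and epithelial collagen receptor, went the other way. It was at 18.0 and 14.5 CPM in lung, 1.84 and 0.949 CPM in cardiac and 2.39 and 1.69 CPM in tail tip libraries, so that lung rose over cardiac (-3.58 ± 0.31 for cardiac minus lung, edgeR adjusted p = 0.000213) and over tail tip (3.01 ± 0.30, adjusted p = 0.000197). Itga1 and Itga2 are neighbours on chromosome 13 in RefSeq's order of protein-coding genes. Per exon length, Itga2 was 8.34 times Itga1 in lung Ad-GFP (95% counting interval 6.70 to 10.5) and 6.26 times in lung Ad-Cre (4.97 to 7.95), but 0.0555 to 0.192 times in the other 4 libraries. With the exons of all transcripts as length it was 14.1 and 10.6 times in lung and 0.0938 to 0.325 times in the others. Itga10, the chain of cartilage, stayed between 1.26 and 3.81 CPM. It was called only for cardiac minus tail tip (1.38 ± 0.42, edgeR adjusted p = 0.0407), a call lost on leaving out any 1 library other than cardiac Ad-Cre (adjusted p from 0.0501 to 0.417).

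**Figure D2:**
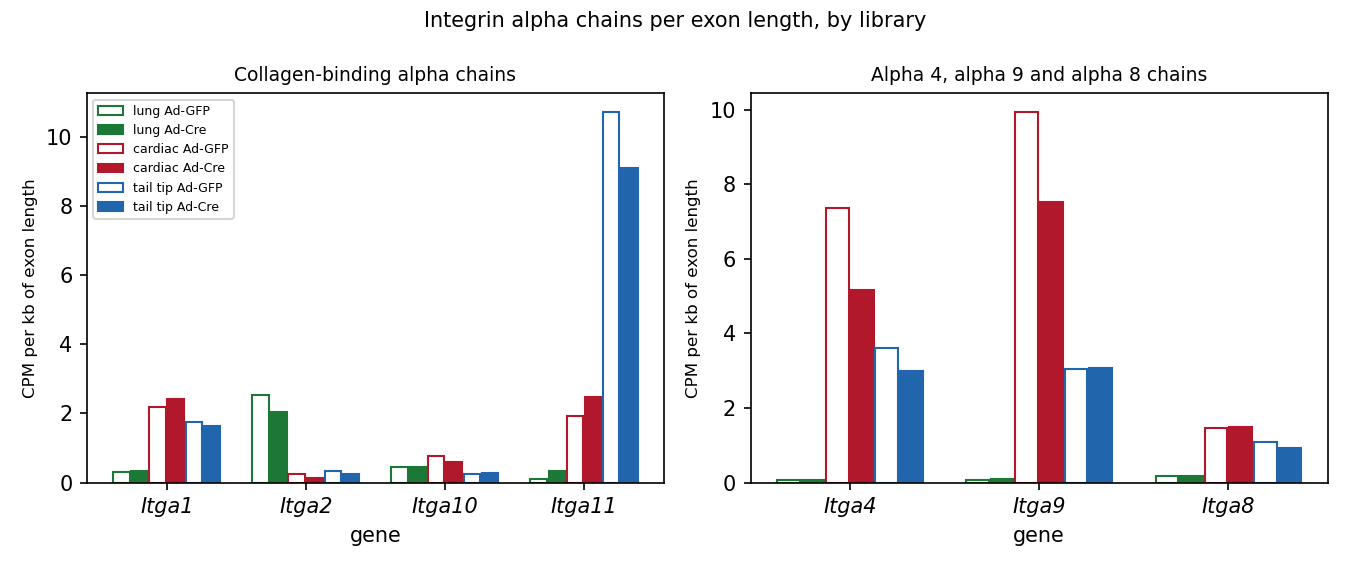
Level per exon length (CPM per kb, y axis, linear) of the 4 collagen-binding alpha chains and of Itga4, Itga9 and Itga8 in the 6 libraries, 1 bar per library, open for Ad-GFP and filled for Ad-Cre. Itga11 reaches 10.7 CPM per kb in tail tip Ad-GFP, Itga2 is highest in lung at 2.53 and 2.04, and the lung bars of Itga4 and Itga9 stay under 0.1.

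Itga4 and Itga9, related chains that bind fibronectin splice forms, Vcam1 and tenascin, were very low in lung fibroblasts. Itga4 had 16 and 20 reads in lung, 2345 and 1541 in cardiac and 1118 and 968 in tail tip libraries. Itga9 had 14 and 16 reads in lung, 2311 and 1643 in cardiac and 692 and 726 in tail tip libraries. Over the pooled libraries of an origin, cardiac CPM were 93.8 times those of lung for Itga4 (95% counting interval 67.6 to 134) and 115 times for Itga9 (80.1 to 170). Tail tip CPM were 48.9 times (35.2 to 70.0) and 39.9 times (27.8 to 59.4) those of lung. Cardiac was also above tail tip (edgeR log2 fold changes 0.92 ± 0.20 for Itga4 and 1.51 ± 0.20 for Itga9, adjusted p = 0.0134 and 0.00131), though the Itga4 call was lost without either tail tip library (adjusted p = 0.0942 to 0.0978).

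Among chains that read the RGD motif of fibronectin and vitronectin, Itga5 and Itgav were the 2 most abundant alpha chains per exon length. Itga5, the fibronectin receptor's alpha chain, was at 444 and 501 CPM in lung, 909 and 877 CPM in cardiac and 850.1 and 816 CPM in tail tip libraries. Lung was the low origin (0.92 ± 0.15 for cardiac minus lung and -0.82 ± 0.15 for lung minus tail tip, edgeR adjusted p = 0.00329 and 0.00328), with the tail tip call lost without the tail tip Ad-GFP library (adjusted p = 0.0654). Itgav, whose chain pairs with beta 1, 3, 5, 6 and 8, was at 332 and 270 CPM in lung, 606 and 821 CPM in cardiac and 401 and 423 CPM in tail tip libraries. It rose in cardiac over lung (1.24 ± 0.20, edgeR adjusted p = 0.0031) and over tail tip (0.79 ± 0.20, adjusted p = 0.0202), the latter not without either tail tip library (adjusted p = 0.132 to 0.134).

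Itga8, an RGD chain of contractile cells, was at 1.06 and 1.05 CPM in lung, 8.48 and 8.70 CPM in cardiac and 6.38 and 5.43 CPM in tail tip libraries. Lung was again low (3.02 ± 0.31 for cardiac minus lung and -2.48 ± 0.31 for lung minus tail tip, edgeR adjusted p = 0.000477 and 0.000585). Itga2b, the platelet chain, was at 3.67 and 4.48 CPM in lung, 1.51 and 1.54 CPM in cardiac and 5.12 and 4.59 CPM in tail tip libraries, so cardiac was the low origin (-1.42 ± 0.36 against lung and -1.67 ± 0.35 against tail tip, edgeR adjusted p = 0.0187 and 0.0109). The first call was lost without lung Ad-Cre (edgeR adjusted p = 0.15) and the second without either tail tip library (adjusted p = 0.0531 to 0.157).

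In order of mean CPM per kb over the 6 libraries, the alpha chains ran from Itga5 (167, range 101 to 208) over Itgav (67.4, 38.3 to 116), Itga6 (19.7, 4.43 to 43.0) and Itga3 (9.87, 0.615 to 44.7) to Itga7 (5.41, 1.05 to 10.3). Each of these overlaps its neighbour in range. The other 13 alpha chains had means of at most 4.58 CPM per kb, with Itgad last at 0.0946. Taking the exons of all annotated transcripts as the length kept the first 4 places and moved Itga7 from place 5 to place 10, with means of 44.3 for Itgav, 9.52 for Itga6 and 2.77 for Itga7.

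Itgb1, the beta chain shared by the collagen, laminin and fibronectin receptors, was the most abundant of all beta chains, with a mean of 641 CPM per kb. It was at 2479 and 2497 CPM in lung, 3043 and 3332 CPM in cardiac and 1654 and 1678 CPM in tail tip libraries. Tail tip was the low origin (0.94 ± 0.15 for cardiac minus tail tip and 0.58 ± 0.15 for lung minus tail tip, edgeR adjusted p = 0.00335 and 0.0147), and cardiac minus lung was not called (adjusted p = 0.0982). Both calls were lost without either tail tip library, and the second also without lung Ad-GFP (edgeR adjusted p = 0.0617 to 0.0789 and 0.0781 to 0.267).

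Itgb5, a vitronectin receptor chain with Itgav, was at 74.9 and 67.2 CPM in lung, 351 and 238 CPM in cardiac and 236 and 245 CPM in tail tip libraries. Lung was below both other origins (2.04 ± 0.19 for cardiac minus lung and -1.77 ± 0.19 for lung minus tail tip, edgeR adjusted p = 0.000276 and 0.000252). Itgb3, also a partner of Itgav, was at 50.1 and 36.1 CPM in lung, 75.5 and 79.5 CPM in cardiac and 65.5 and 70.0 CPM in tail tip libraries. It was likewise low in lung (0.85 ± 0.19 and -0.66 ± 0.19, edgeR adjusted p = 0.0113 and 0.0221), but the first call was lost without lung Ad-Cre (adjusted p = 0.0895) and the second without lung Ad-Cre or either tail tip library (adjusted p = 0.0525 to 0.258).

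Itgb8, which with Itgav binds latent TGF-beta, was at 2.40 and 2.45 CPM in lung, 2.98 and 2.58 CPM in cardiac and 8.01 and 9.02 CPM in tail tip libraries. Tail tip was the high origin (-1.61 ± 0.31 for cardiac minus tail tip and -1.81 ± 0.31 for lung minus tail tip, edgeR adjusted p = 0.00696 and 0.00245), with the first call lost without tail tip Ad-Cre (adjusted p = 0.11). Itgb6, the epithelial partner of Itgav, had 33 and 30 reads in lung, 38 and 92 in cardiac and 7 and 3 in tail tip libraries. Tail tip was its low origin (3.64 ± 0.80 for cardiac minus tail tip and 2.84 ± 0.79 for lung minus tail tip, edgeR adjusted p = 0.0126 and 0.0201). Both calls were lost without tail tip Ad-Cre and the second also without lung Ad-GFP (edgeR adjusted p = 0.132, and 0.0773 to 0.208).

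Leukocyte integrins were ordered from lung over cardiac to tail tip, with no overlap, for 5 of 7 chains, of which Itgb2, Itgal, Itgam and Itgax were called in all 3 comparisons (13% of all genes). The sum of macrophage markers had the same order. Of all genes, 35.1% had both cardiac libraries above both lung libraries, and 38.1% had them below both tail tip libraries. The share of all genes with the full order was not computed. The 7 chains summed to 4.63 and 9.08 CPM in lung, 67.4 and 48.6 CPM in cardiac and 444 and 356 CPM in tail tip libraries. Itgb2, the beta chain that Itgal, Itgam, Itgax and Itgad share, had 28 and 54 reads in lung, 1099 and 676 in cardiac and 7727 and 6429 in tail tip libraries. It differed in all 3 comparisons, by 4.18 ± 0.38 (cardiac minus lung), -2.97 ± 0.32 (cardiac minus tail tip) and -7.15 ± 0.41 (lung minus tail tip), with edgeR adjusted p = 0.000262, 0.000567 and 1.84e-05.

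Itgam, which encodes CD11b, part of a complement receptor of macrophages, had 1 and 0 reads in lung, 504 and 262 in cardiac and 1601 and 1585 in tail tip libraries. With 1 read in lung, the pooled tail tip level was 2690 times that of lung with a counting interval of 482 to 106300. Itgal, which encodes the alpha chain of LFA-1, had 1 and 5 reads in lung, 442 and 291 in cardiac and 2727 and 2197 in tail tip libraries. Itgax, which encodes CD11c of macrophages and dendritic cells, had 0 and 7 reads in lung, 72 and 118 in cardiac and 1900 and 1453 in tail tip libraries. Pooled tail tip levels were 4.04 (3.74 to 4.38), 6.53 (6.04 to 7.07) and 17.2 (14.8 to 20.0) times those of cardiac for Itgam, Itgal and Itgax, and edgeR called each in all 3 comparisons. Itgad had at most 39 reads and was called for lung minus tail tip alone (edgeR adjusted p = 0.0171), a call lost without lung Ad-GFP or either tail tip library (adjusted p = 0.0738 to 0.248).

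Itgae and Itgb7, which pair on intraepithelial T cells, did not follow this order. Itgae had 22 and 38 reads in lung, 45 and 49 in cardiac and 16 and 17 in tail tip libraries, and Itgb7 had 83 and 127, 25 and 84, and 110 and 74 reads. Neither was called in any origin comparison. Of the 14 macrophage and leukocyte markers all had reads in each cardiac and tail tip library, while C1qa and C1qb were at 0 in both lung libraries. Lyz2, the macrophage lysozyme, reached 815 and 480 CPM in cardiac and 3951 and 3384 CPM in tail tip libraries. The part of such cells in the levels of the other chains was not tested.

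Itgam and Itgax lie next to each other on chromosome 7, with Itgad on the far side of Itgax in RefSeq's order. Their promoters are shown because the 2 genes had the same order of origins. Capitals mark the patterns named above, on the plus strand of GRCm38.p6 at chr7:128062390-128062689 (Itgam) and chr7:128129300-128129599 (Itgax).
Itgam: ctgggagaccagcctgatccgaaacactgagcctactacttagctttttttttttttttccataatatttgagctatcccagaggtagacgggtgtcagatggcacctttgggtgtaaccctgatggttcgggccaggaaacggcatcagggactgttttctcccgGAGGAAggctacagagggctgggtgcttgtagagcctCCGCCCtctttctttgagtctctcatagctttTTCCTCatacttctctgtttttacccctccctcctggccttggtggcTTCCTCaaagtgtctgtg
Itgax: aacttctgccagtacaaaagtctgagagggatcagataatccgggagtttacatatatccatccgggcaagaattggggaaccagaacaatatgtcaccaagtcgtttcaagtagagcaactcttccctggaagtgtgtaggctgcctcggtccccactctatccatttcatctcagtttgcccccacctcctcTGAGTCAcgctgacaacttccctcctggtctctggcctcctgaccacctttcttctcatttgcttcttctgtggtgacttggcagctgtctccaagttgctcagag
The Itgam window held GAGGAA or its reverse complement 3 times and the GC box once, and the Itgax window held TGANTCA alone.

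**Figure D3:**
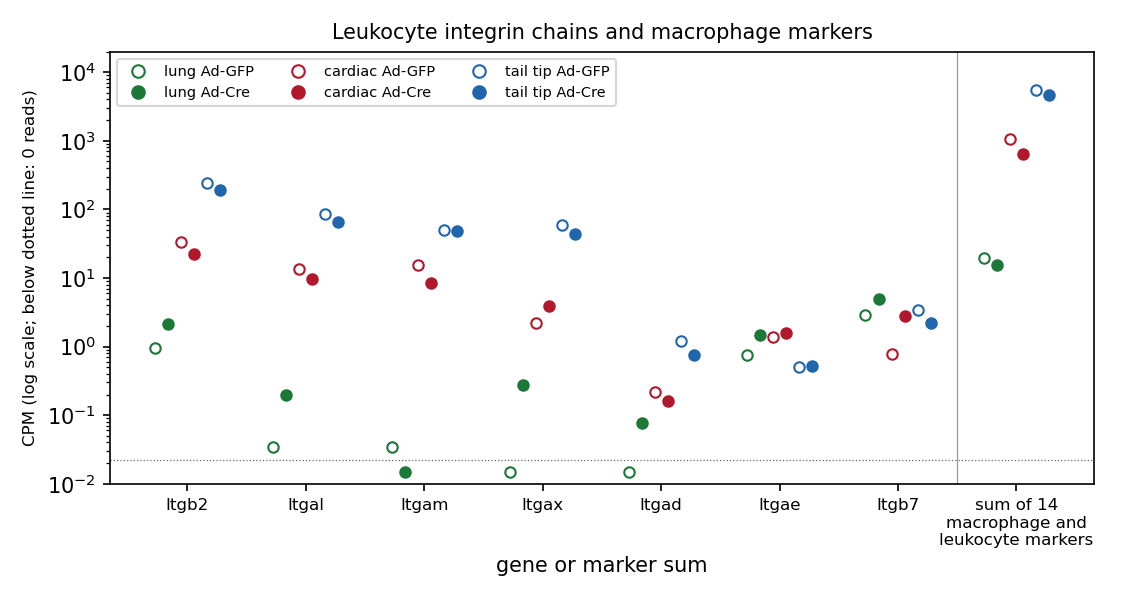
Level in CPM (y axis, log scale) of the 7 leukocyte integrin chains and, at the right, the sum of the 14 macrophage and leukocyte markers, with 1 point per library, open for Ad-GFP and filled for Ad-Cre. For Itgb2, Itgal, Itgam, Itgax and Itgad the tail tip libraries lie above cardiac and cardiac above lung, as for the marker sum, whereas Itgae and Itgb7 do not separate in this order.

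Per exon length, Lama4 was the largest of the laminin alpha chains in each library, and the shares of Lama2 and Lama5 were highest in cardiac fibroblasts. Lama4 made up 53.8% (cardiac Ad-Cre) to 88.8% (tail tip Ad-GFP) of the summed alpha chains. With the exons of all transcripts as length, it was 42.3% to 86.2% in the same libraries. Lama4, the alpha chain of vessel and mesenchymal laminin-411, was at 53.1 and 61.4 CPM in lung, 249 and 168 CPM in cardiac and 175 and 180.0 CPM in tail tip libraries. Lung was the low origin (1.85 ± 0.21 for cardiac minus lung and -1.63 ± 0.21 for lung minus tail tip, edgeR adjusted p = 0.000749 and 0.000674), while cardiac and tail tip overlapped (adjusted p = 0.452). Lama2, the alpha chain of muscle laminin-211, was at 17.4 and 16.7 CPM in lung, 177 and 119 CPM in cardiac and 32.6 and 37.3 CPM in tail tip libraries. It rose in cardiac over lung by 3.11 ± 0.22 and over tail tip by 2.07 ± 0.21 (edgeR adjusted p = 9.3e-05 and 0.000439), and was lower in lung than in tail tip (-1.04 ± 0.21, adjusted p = 0.00507), a call lost without tail tip Ad-Cre (adjusted p = 0.0701).

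Lama5, the chain of epithelial and endothelial laminin-511, was at 5.66 and 11.0 CPM in lung, 76.0 and 127 CPM in cardiac and 2.45 and 2.78 CPM in tail tip libraries. The origins did not overlap, and cardiac exceeded lung by 3.63 ± 0.22 and tail tip by 5.23 ± 0.24 (edgeR adjusted p = 5.02e-05 and 2.61e-05). Lama3, of laminin-332, stayed between 24 and 101 reads, with overlapping origins and no call. Lama1, the embryonic alpha chain, had 5 and 2 reads in lung, 2 and 74 in cardiac and 9 and 3 in tail tip libraries.

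Laminin beta chains switched between origins: Lamb1 led in lung and cardiac and Lamb2 in tail tip fibroblasts. Lamb1, the widespread beta chain, was at 400 and 398 CPM in lung, 948 and 797 CPM in cardiac and 263 and 293 CPM in tail tip libraries. Cardiac exceeded lung by 1.13 ± 0.16 and tail tip by 1.65 ± 0.16 (edgeR adjusted p = 0.00186 and 0.00036). Lung exceeded tail tip by 0.52 ± 0.16 (edgeR adjusted p = 0.0287), which was not called without either lung or either tail tip library (adjusted p = 0.0732 to 0.48). Lamb2, the beta chain of synapses, vessels and kidney, was at 102 and 136 CPM in lung, 184 and 128 CPM in cardiac and 441 and 450.4 CPM in tail tip libraries. It rose in tail tip over both others (-1.52 ± 0.23 for cardiac minus tail tip and -1.90 ± 0.23 for lung minus tail tip, edgeR adjusted p = 0.00253 and 0.000484), and lung and cardiac overlapped (adjusted p = 0.215).

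Of the reads of Lamb1 and Lamb2 together, Lamb2 took 62.7% (Wilson 95% interval 62.0 to 63.3) and 60.6% (59.98 to 61.2) in tail tip libraries, 20.4% (19.7 to 21.02) and 25.4% (24.7 to 26.2) in lung and 16.3% (15.9 to 16.6) and 13.8% (13.4 to 14.2) in cardiac libraries. Per exon length Lamb2 was 1.74 and 1.60 times Lamb1 in tail tip and 0.166 to 0.354 times in the other 4 libraries, or 2.74 and 2.51 times against 0.261 to 0.556 times with the exons of all transcripts. Both promoters are shown because the genes differed in opposite directions between cardiac and tail tip, on the plus strand of GRCm38.p6 at chr12:31265043-31265342 (Lamb1) and chr9:108479612-108479911 (Lamb2).
Lamb1: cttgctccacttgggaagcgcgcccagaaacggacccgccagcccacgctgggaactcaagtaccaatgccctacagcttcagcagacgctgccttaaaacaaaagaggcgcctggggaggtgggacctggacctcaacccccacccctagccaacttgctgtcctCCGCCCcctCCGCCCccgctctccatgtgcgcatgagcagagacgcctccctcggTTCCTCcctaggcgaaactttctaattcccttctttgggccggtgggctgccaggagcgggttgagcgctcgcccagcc
Lamb2: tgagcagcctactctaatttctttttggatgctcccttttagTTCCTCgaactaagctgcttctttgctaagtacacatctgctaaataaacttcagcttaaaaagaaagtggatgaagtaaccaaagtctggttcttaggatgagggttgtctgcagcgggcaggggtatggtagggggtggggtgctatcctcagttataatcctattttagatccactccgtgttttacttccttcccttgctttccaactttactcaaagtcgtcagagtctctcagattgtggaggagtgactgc
GC content was 63.7% in the Lamb1 window and 44.0% in that of Lamb2, where the median of all promoters was 52.7%. Lamb1 held the GC box at 2 places and GAGGAA once, and Lamb2 held GAGGAA once. Lamb3, of laminin-332, had 2 and 47 reads in lung, 9 and 269 in cardiac and 11 and 19 in tail tip libraries, with no call between origins.

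Lamc1, the gamma chain of most laminins, was highest in cardiac fibroblasts. It was at 247 and 286 CPM in lung, 780.1 and 779 CPM in cardiac and 262 and 256 CPM in tail tip libraries (1.55 ± 0.15 for cardiac over lung and 1.59 ± 0.15 over tail tip, edgeR adjusted p = 0.000339 and 0.000296). Lamc3 had 7 to 94 reads and no call.

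Summed per exon length, laminin alpha chains came to 11.2 and 13.0 CPM per kb in lung, 66.0 and 51.6 in cardiac and 32.6 and 33.97 in tail tip libraries. Beta chains came to 86.6 and 92.6, 195 and 161, and 123 and 130.3 CPM per kb. Cardiac libraries were the highest for both classes by this length. Lama5 made up 10.1% and 21.5% of the alpha sum in cardiac libraries, 4.45% and 7.42% in lung and 0.661% and 0.718% in tail tip libraries. With the exons of all annotated transcripts as length these shares were 17.5% and 33.8%, 8.16% and 13.3%, and 1.28% and 1.39%, in the same order of origins. That length lowered the alpha sums to between 6.09 and 38.2 CPM per kb and the beta sums to between 57.1 and 125.8, and tail tip Ad-Cre then exceeded cardiac Ad-Cre for beta chains (103.7 and 102.7). Over the 6 libraries the mean order was Lamb1 (88.4 CPM per kb), Lamc1 (57.1), Lamb2 (42.7), Lama4 (24.4), Lama2 (6.81) and Lama5 (3.28), and each of these overlaps its neighbour in range. With the exons of all transcripts as length, Lamc1 came before Lamb1, and the means fell to 52.1 for Lamb1, 12.2 for Lama4 and 4.09 for Lama2.

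**Figure D4:**
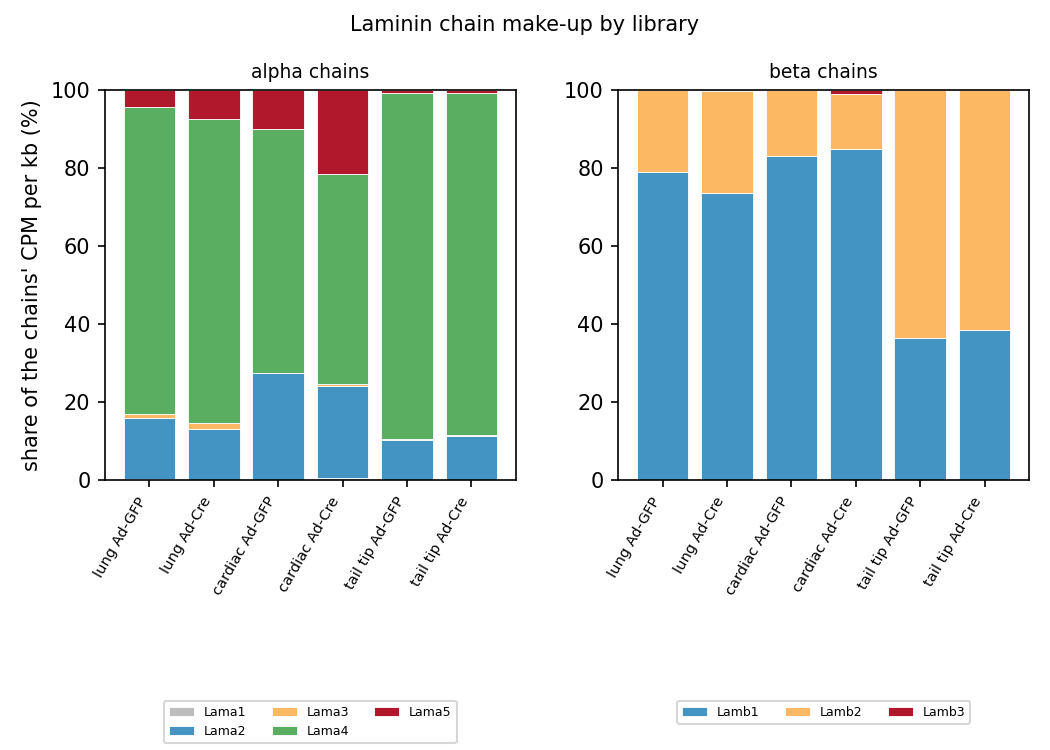
Share of each laminin chain in the summed CPM per kb of its class (y axis, %), in 1 stacked bar per library, for alpha and beta chains. Lamb2 is 63.5% and 61.4% of the beta bars in tail tip and at most 26.03% in the other 4 libraries, and Lama5 is widest in cardiac Ad-Cre at 21.5%.

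Of 17 other basement membrane proteins tested (of 18 listed), 13 differed between cardiac and lung (76.5%, against 38.4% of all genes), 9 of them higher in cardiac. Between cardiac and tail tip 15 differed (88.2%, against 33.5% of all genes), 11 higher in cardiac, and between lung and tail tip 11 (64.7%, against 50.6%), 5 higher in lung. Col15a1, a collagen of the basement membrane zone, was at 1 read or none in lung, at 405 and 195 CPM in cardiac and at 29.0 and 22.5 CPM in tail tip libraries. Col4a1, a main chain of collagen IV, was at 630.1 and 858 CPM in lung, 7769 and 4952 CPM in cardiac and 573 and 585 CPM in tail tip libraries (3.09 ± 0.28 for cardiac minus lung, edgeR adjusted p = 0.000245). Tinagl1, a matricellular protein of basement membranes, was at 36.1 and 90.6 CPM in lung, 249.7 and 682 CPM in cardiac and 8.89 and 12.4 CPM in tail tip libraries (5.29 ± 0.28 for cardiac minus tail tip, edgeR adjusted p = 3.53e-05).

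Among 7 other laminin receptors, 3 were higher in cardiac than in lung, with none lower, a share of 42.9% near the 38.4% of all genes called. Bcam, the Lutheran receptor for laminin alpha 5, was at 0.412 and 0.351 CPM in lung, 22.1 and 25.2 CPM in cardiac and 3.96 and 4.68 CPM in tail tip libraries (5.93 ± 0.31 for cardiac minus lung, edgeR adjusted p = 2.78e-05). Cd151, a tetraspanin that associates with laminin-binding integrins, was at 94.2 and 95.1, 273.5 and 283, and 72.9 and 80.8 CPM (1.56 ± 0.14 for cardiac minus lung, edgeR adjusted p = 0.00027). Sdc1, a heparan sulfate proteoglycan, was highest in tail tip (-2.28 ± 0.16 for lung minus tail tip, edgeR adjusted p = 3.93e-05). Between cardiac and tail tip 2 receptors were higher in cardiac and 1 lower (42.9%, against 33.5% of all genes), and between lung and tail tip 3 were lower in lung (42.9%, against 50.6%).

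Of 12 tested integrin ligands outside the laminins (16 listed), 9 were higher and 1 lower in cardiac than in lung, where 20.8% of all genes were higher and 17.6% lower. Between cardiac and tail tip 2 were higher in cardiac and 5 lower (15.5% and 18% of all genes), and between lung and tail tip 1 was higher in lung and 9 lower (22.3% and 28.2% of all genes). Postn, which binds alpha v integrins, was at 4.60 and 5.06 CPM in lung, 980.2 and 638 CPM in cardiac and 248 and 158 CPM in tail tip libraries. Npnt, the ligand of alpha 8 beta 1, was at 84.8 and 45.8 CPM in lung, 205 and 135 CPM in cardiac and 2.80 and 3.08 CPM in tail tip libraries, an order unlike that of Itga8. Spp1, osteopontin, was at 4673 and 2577, 420.4 and 431, and 5446 and 5099 CPM. Of 21 genes of integrin activation and the adhesion complex (22 listed), 14, 9 and 11 were called in the 3 comparisons (9 higher in cardiac than in lung, 7 higher in cardiac than in tail tip and 6 higher in lung than in tail tip). These shares of 66.7%, 42.9% and 52.4% stand against 38.4%, 33.5% and 50.6% of all genes, so the last is near the background. Fermt3, the kindlin of blood cells, was at 1.34 and 1.44 CPM in lung, 13.1 and 7.20 CPM in cardiac and 62.4 and 46.5 CPM in tail tip libraries, while Tns1, a tensin, was at 226 and 290 CPM, 1110.0 and 1193 CPM, and 199.6 and 241 CPM.

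Between the viruses no integrin or laminin chain passed the test. The change common to the 3 origins was called for 0 of 36 chains by edgeR, as for all genes (0%), and DESeq2 called 0 chains and 4 genes. At an unadjusted p under 0.05 stood 6 chains, Itga3, Itga7, Itgb4, Lama3, Lama5 and Lamb3 (2.02% of all genes). The fitted log2 fold change was higher for Ad-Cre in each, though Itga3 was lower with Ad-Cre in tail tip (ratio 0.797). The lowest unadjusted p was 0.00629 for Lamb3 (3.43 ± 0.90, edgeR adjusted p = 0.9996). Ad-Cre was above Ad-GFP in all 3 origins for 8 chains (12% of all genes), Itga6, Itga7, Itgb4, Itgb1, Itgae, Lama3, Lama5 and Lamb3. Ad-Cre was below in all 3 for Itga2 and Itgam (8.95% of all genes). Some of these directions rest on few reads or on ratios near 1. Itgam had 1 and 0 reads in lung. Itgae, on 16 and 17 reads in tail tip, had a ratio of 1.02 (counting interval 0.485 to 2.158). Itgb1 had a ratio of 1.007 in lung (0.9963 to 1.018). Of the chains named, Lama3 alone had counting intervals that excluded 1 in all 3 origins. Without the tail tip Ad-GFP or the tail tip Ad-Cre library, lung and cardiac alone give the virus effect. Log2 fold changes of Itga3, Itgb4 and Lamb3 were then 2.85, 2.84 and 4.86. They were 1.39, 2.15 and 2.98 without lung Ad-GFP, and 1.55, 0.83 and 2.33 without cardiac Ad-GFP. For Itga7 the log2 fold change was 0.35 without lung Ad-GFP and 0.76 without cardiac Ad-GFP. Each of these fits leaves an origin with 1 library, so only effect sizes are given. With all libraries in the fit, none of the surrounding genes above was called either. The smallest unadjusted p of each list was 0.000777 (Tinagl1), 0.0319 (Npnt), 0.0509 (Fermt3) and 0.154 (Sdc1) in edgeR.

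Within an origin 1 library stands against 1, so the following ratios have no replicate check and no test. In lung 9 of 36 chains were at least 2-fold apart, all higher with Ad-Cre (of all genes, 4.87% were higher, 2.82% lower and 7.69% either), and 4 of these were leukocyte integrins with 54 reads or fewer. In cardiac 7 were at least 2-fold apart, again all higher with Ad-Cre (of all genes, 11.3% were higher, 9.07% lower and 20.3% either). In tail tip 0 were (3.1% of all genes, 1.53% higher), or 1 with a smaller prior count or no filter. Median log2 ratios of the 36 in lung, cardiac and tail tip were 0.29, 0.06 and 0.02, where all genes had 0.03, 0 and 0.01. Itga3, Itgb4 and Lamb3 were past 2-fold in both lung and cardiac (1.35% of all genes).

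Itga3 went from 101 to 741 reads in lung, a ratio of 8.33 (95% counting interval 6.76 to 10.4), and from 1197 to 7180 reads in cardiac, a ratio of 6.39 (6.01 to 6.80). In tail tip fibroblasts its ratio was 0.797 (0.611 to 1.04). Per exon length, Itga6 was 22.0 times Itga3 in lung Ad-GFP and 3.25 times in lung Ad-Cre, and 4.83 and 0.962 times in cardiac libraries. With the exons of all transcripts as length these ratios were 11.5, 1.71, 2.54 and 0.505. Itgb4 had a ratio of 2.86 (1.81 to 4.65) in lung and 16.7 (11.7 to 24.7) in cardiac, from 32 to 502 reads, and 1.25 (0.931 to 1.69) in tail tip libraries. Its partner chain Itga6 had ratios of 1.23 (1.16 to 1.31), 1.27 (1.23 to 1.32) and 1.05 (0.941 to 1.17).

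Lamb3 and Lama3, chains of laminin-332, and Lamc3 and Lama1 had Ad-Cre to Ad-GFP ratios past 2-fold in cardiac fibroblasts. Lamb3 had ratios of 31.8 (16.5 to 70.4) in cardiac and 26.7 (6.99 to 227) in lung, the latter from 2 reads. Lama3 had 4.48 (2.85 to 7.32) in cardiac, 1.59 (1.01 to 2.53) in lung and 1.82 (1.13 to 2.99) in tail tip libraries. Lamc3 had 14.3 (6.68 to 36.6) and Lama1, from 2 to 74 reads, 39.4 (10.5 to 332) in cardiac. Lama5 had 1.66 (1.58 to 1.75) in cardiac and 1.94 (1.60 to 2.37) in lung. Beside the 4 leukocyte chains past 2-fold in lung, among them Itgb2 (2.19, 1.36 to 3.59), the integrin chains past 2-fold in 1 origin alone were Itga7 in lung (2.32, 2.07 to 2.59), Itgb6 in cardiac (2.58, 1.75 to 3.87), Itgb7 in cardiac (3.58, 2.27 to 5.84) and, on few reads, Itga11 in lung (3.05, 1.69 to 5.81).

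Of the 36 chains tested, 20 had a ratio above 1 in cardiac fibroblasts and 16 below, near the split of all 18143 genes (9195 above and 8948 below). Chains below 1 included those with ratios of 0.673 (0.645 to 0.701) for Lama2, 0.674 (0.651 to 0.698) for Lama4, 0.694 (0.666 to 0.723) for Lamb2, 0.676 (0.656 to 0.696) for Itgb5 and 0.6999 (0.656 to 0.747) for Itga4, whereas Itgav was at 1.36 (1.33 to 1.38) and Itga11 at 1.29 (1.105 to 1.5). In the same pair the sum of 7 fibroblast markers was 16410 with Ad-GFP and 11070 CPM with Ad-Cre, with 6 of the 7 lower and Pdgfra higher, at a ratio of 1.52 (1.48 to 1.565). Epithelial markers (9 genes) summed to 14.4 and 145 CPM in cardiac, 2.06 and 8.88 CPM in lung and 4.81 and 5.61 CPM in tail tip libraries. All 9 had reads in cardiac Ad-Cre, with Krt7 going from 8 to 768 reads there and from 1 to 82 in lung, whereas Krt5 and Krt14 were at 0 in cardiac Ad-GFP and in both lung libraries. Mesothelial markers (7 genes, Krt19 shared with the epithelial list) summed to 61.3 and 132 CPM in cardiac, 155 and 195 CPM in lung and 0.629 and 0.936 CPM in tail tip libraries. In cardiac, 4 of the 6 tested were higher with Ad-Cre, among them Msln (209 to 842 reads), and Muc16 was at 0. The other 2 were lower, Lrrn4 going from 1048 to 288 reads and Wt1 from 307 to 270. Nearly all of the lung sum was Msln, at 153 and 193 CPM. Upk3b, Upk1b, Lrrn4, Wt1 and Muc16 had 1 read or none in each lung library. Muscle markers (7 genes) summed to 8.75 and 24.2 CPM in cardiac libraries, with Myf5 at 0. Des went from 185 to 570 reads there, and Chrna1, Myh3 and Pax7 were also higher with Ad-Cre. Myod1 went down from 17 to 3 reads and Myog from 11 to 5. The sum of macrophage markers was lower with Ad-Cre in all 3 pairs, as were 7 of its 14 genes taken singly (8.95% of all genes). In lung this rests on few reads for Adgre1 (3 and 0), Fcgr1 and C1qc (1 and 0 each) and Fcer1g (9 and 6). The part of these cells in the ratios was not tested.

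**Figure D5:**
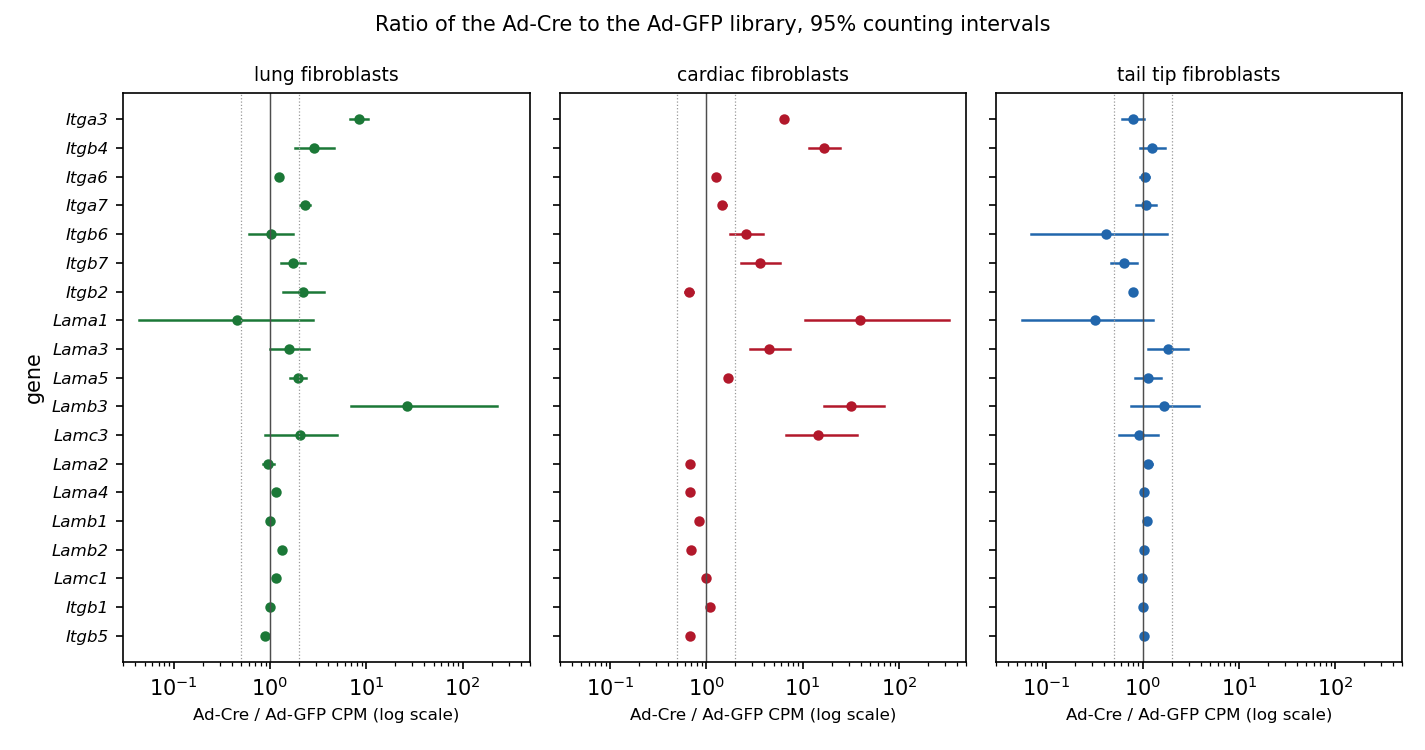
Ratio of CPM with Ad-Cre to CPM with Ad-GFP (x axis, log scale) for 19 integrin and laminin chains in lung, cardiac and tail tip fibroblasts, with 95% counting intervals as bars and dotted lines at 2-fold. Itga3, Itgb4 and Lamb3 lie past 2-fold in lung and cardiac, at 8.33 and 6.39 for Itga3. The ratios drawn carry no prior count. In tail tip only Itgb6 (0.412, from 7 and 3 reads) and the untested Lama1 (0.320, from 9 and 3 reads) lie past 2-fold, both below 1.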

How the data were processed

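Poly(A) RNA from 6 libraries (3 origins, 2 viruses, 1 library per group) was deposited by the authors as raw read counts per gene. STAR 2.0.7 and genome build mm39 are named in the submitters' processing notes, without their roles, with the counter, annotation and strand setting not given in the sources used here, so reads of overlapping antisense genes cannot be told apart. Counts were tested in edgeR 4.0.16 (R 4.3.3, limma 3.58.1; robust quasi-likelihood, TMM factors 0.964 to 1.026, a minimum count of 10, origin and virus as additive terms, 2 residual degrees of freedom), two-sided, with Benjamini-Hochberg adjustment over 18143 genes; the code was tested on simulated data. Ratios within an origin use TMM-scaled CPM with exact conditional 95% counting intervals, and a prior count of 2 for log2 ratios. Levels per length use exons of GENCODE M21 basic transcripts (GRCm38).

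Members and lists were chosen with earlier results of these data known. All members could be named, and the values of 1 are not reported here, though counts over the set include it. Of each other list, genes came from the 4 called with the largest change per comparison at a mean of at least 1 CPM, or from the 2 with the smallest virus p. Alternatives were DESeq2 1.42.0, its size factors, library totals, no filter, a prior count of 0.5, origin alone and leaving out each library.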

Additional observations from a re-analysis of the deposited data

Results flagged for a closer look

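Itgb2 went in opposite directions in lung and cardiac fibroblasts: its log2 ratio of Ad-Cre to Ad-GFP was 1.08 in lung, on 28 and 54 reads, and -0.61 in cardiac, a difference of 1.69 that was not tested. Itgb7 did so in cardiac and tail tip fibroblasts, with log2 ratios of 1.75 and -0.62, a difference of 2.37 that was not tested.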

How the results depend on the processing

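No paired analysis was possible because each group holds 1 library, so no replicate numbers pair libraries; the virus test has origin as its block. Of 70 calls for integrin and laminin chains between origins, 51 were kept whichever library was left out, 19 were lost without at least 1 library, and 0 changed sign. Leaving out a library leaves an origin with 1, which is assumed to vary like the others. The number of chains called then ran from 21 to 27 for cardiac minus lung, 15 to 28 for cardiac minus tail tip and 20 to 30 for lung minus tail tip, and DESeq2 size factors, library totals and DESeq2 gave the same counts as reported. Genes called over the whole table moved from 6077 to between 3110 and 9205 (cardiac minus tail tip) and from 9175 to between 5995 and 12560 (lung minus tail tip). For the virus, genes called went from 0 to 141 without a filter, to 4 with DESeq2 and to 11 to 109 with a library left out. Chains called for the virus went from 0 to 3 without a filter (Itga3, Itgb4 and Lamb3, edgeR adjusted p = 1.47e-21, 3.58e-05 and 6.39e-07) and to 0 to 3 with a library left out. Chains at least 2-fold apart in tail tip went from 0 to 1 with a prior count of 0.5 and to 1 without a filter. The cause was not tested. For chains under about 50 reads, as for Lamb3 in Ad-GFP libraries, counting error alone spans several fold.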
